A study of Mus musculus with 6 samples.

Results

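The 10 immediate early genes described here are Fos, Fosb, Jun, Junb, Atf3, Egr1, Nr4a1, Ier2, Dusp1 and Btg2. They were chosen by name, with earlier results of these data known. Every probe set annotated to exactly 1 of them was taken. This gave 12 probe sets for 10 genes out of the 12393 genes on the array that have such a probe set. Jun and Btg2 each have 2 probe sets. The tissue was whole pituitary of male C57BL/6J mice aged 8 to 12 weeks, housed with 12 hours of light and 12 of dark and killed by decapitation at zeitgeber time 12, when the lights go off. One group was wild type (replicates 1, 2 and 3) and the other Bmal1-/- (replicates 4, 5 and 6), which lack the circadian clock factor BMAL1, and no agent was given to either. Each replicate was 1 Affymetrix array of RNA pooled from 3 glands, so a value is already an average over 3 animals and n = 3 arrays a genotype throughout. The labels name no promoter or Cre, so nothing in them limits the loss of BMAL1 to a cell type.

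Immediate early genes are transcribed within minutes of a stimulus from factors already present in the cell, without new protein synthesis, and their transcripts are short-lived. In pituitary cells hypothalamic releasing hormones reach them through cyclic AMP, calcium and the MAP kinases, which act on CREB at cyclic AMP response elements (CREs) and on SRF with its ETS partners at serum response elements. The FOS, JUN and ATF3 proteins are leucine zipper factors that pair on AP-1 or CRE sites. EGR1 is a zinc finger factor needed for Lhb transcription in gonadotrophs, and NR4A1 (NUR77) is an orphan nuclear receptor that acts on Pomc in corticotrophs.

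The RefSeq table (GRCm38.p6) held promoters of 8 of the 10 genes, all but Egr1 and Ier2. Those of 5 genes that shared their lowest wild-type pool and their highest Bmal1-/- pool are printed, with that of Jun, which did not share them. Those of Fosb and Atf3, which did not share both pools either, are not printed. Each run covers the 250 bases before the annotated start, 5′ to 3′ on the gene's strand, and capitals mark the CRE half-site TGACG, which reads CGTCA where it lies on the opposite strand, or the full CRE TGACGTCA.
Fos, chr12:85473640-85473889 (plus strand): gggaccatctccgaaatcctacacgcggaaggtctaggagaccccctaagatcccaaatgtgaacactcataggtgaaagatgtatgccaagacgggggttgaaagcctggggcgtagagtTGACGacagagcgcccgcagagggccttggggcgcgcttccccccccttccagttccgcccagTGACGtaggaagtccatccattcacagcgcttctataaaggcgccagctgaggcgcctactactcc
Junb, chr8:84978749-84978998 (minus strand): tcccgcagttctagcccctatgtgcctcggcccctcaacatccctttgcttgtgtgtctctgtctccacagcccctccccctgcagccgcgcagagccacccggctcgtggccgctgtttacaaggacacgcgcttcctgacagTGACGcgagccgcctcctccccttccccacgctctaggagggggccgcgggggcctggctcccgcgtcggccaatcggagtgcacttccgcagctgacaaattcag
Nr4a1, chr15:101266596-101266845 (plus strand): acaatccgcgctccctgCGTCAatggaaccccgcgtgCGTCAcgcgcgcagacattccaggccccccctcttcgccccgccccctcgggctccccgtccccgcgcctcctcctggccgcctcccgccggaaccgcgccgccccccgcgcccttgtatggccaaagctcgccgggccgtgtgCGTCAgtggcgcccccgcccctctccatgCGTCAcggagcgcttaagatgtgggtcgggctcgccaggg
Dusp1, chr17:26508473-26508722 (minus strand): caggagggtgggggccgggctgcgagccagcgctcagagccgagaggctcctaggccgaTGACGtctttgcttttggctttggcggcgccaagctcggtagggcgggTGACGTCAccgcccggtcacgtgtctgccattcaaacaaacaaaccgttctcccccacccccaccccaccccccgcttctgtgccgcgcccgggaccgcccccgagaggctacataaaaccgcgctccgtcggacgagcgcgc
Btg2, chr1:134079156-134079405 (minus strand): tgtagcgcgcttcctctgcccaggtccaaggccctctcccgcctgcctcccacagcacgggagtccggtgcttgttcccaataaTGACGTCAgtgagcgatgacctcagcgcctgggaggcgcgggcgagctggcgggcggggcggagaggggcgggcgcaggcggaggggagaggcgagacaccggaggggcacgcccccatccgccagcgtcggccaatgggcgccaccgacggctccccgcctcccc
Jun, chr4:95052223-95052472 (minus strand): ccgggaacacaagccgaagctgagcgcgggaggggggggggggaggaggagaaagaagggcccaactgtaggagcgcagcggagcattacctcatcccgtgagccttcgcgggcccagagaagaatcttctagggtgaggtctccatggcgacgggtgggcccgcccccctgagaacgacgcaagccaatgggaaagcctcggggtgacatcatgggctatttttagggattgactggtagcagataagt

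Motifs were searched on both strands of the full windows, which also hold the 50 bases after the start. The half-site TGACG was found in 7 of the 8 member promoters, all but Jun, and in 20.8% of all 32851 promoters of that length in the table. Fosb (-60 to -56) and Atf3 (-7 to -3) thus held it too, without sharing both pools, but both were dim and left out of the test. Whether the half-site goes with the shared pools was not tested. The full CRE, which contains a half-site on each strand, stood in the promoters of Dusp1 (bases -143 to -136) and Btg2 (-166 to -159), 2 of the 8 against 1.79% of all. Nr4a1 held 4 half-sites and Fos 2, at -129 and -66. The E-box CACGTG, the element that BMAL1 binds, stood in 1 member promoter, that of Dusp1 at -126 to -121, and in 7.15% of all. No CArG box, the core of a serum response element, lay in any of the 8 windows (1.63% of all), nor did an AP-1 site, TGACTCA or TGAGTCA (5.20% of all). The EGR sites GCGTGGGCG or GCGGGGGCG were matched in 2, Fosb and Nr4a1 (3.47% of all), and TATAAA in 2, Fos and Junb (13.6% of all). TATAAA lay at -33 to -28 in Fos but at 1 to 6 in Junb, from the annotated start on and outside the printed bases. These are exact matches of letters within short windows and were not measured as sites. Near matches to the full CRE, such as TGACATCA in the Jun promoter, were not counted.

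None of the immediate early genes passed the test between genotypes, and several differed more between pools of one genotype than between the genotypes. Fos ranged over 5.35-fold and Egr1 over 4.34-fold among the 3 Bmal1-/- pools, and over 3.33-fold and 3.10-fold among the 3 wild-type pools. Wild-type replicate 1 and Bmal1-/- replicates 4 and 6 read low, and wild-type replicates 2 and 3 and Bmal1-/- replicate 5 read high, for Fos, Junb, Egr1, Ier2 and Dusp1. Values are MAS5 intensities on a linear scale, and log2 values are of the intensity plus 16.

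**Figure D1:**
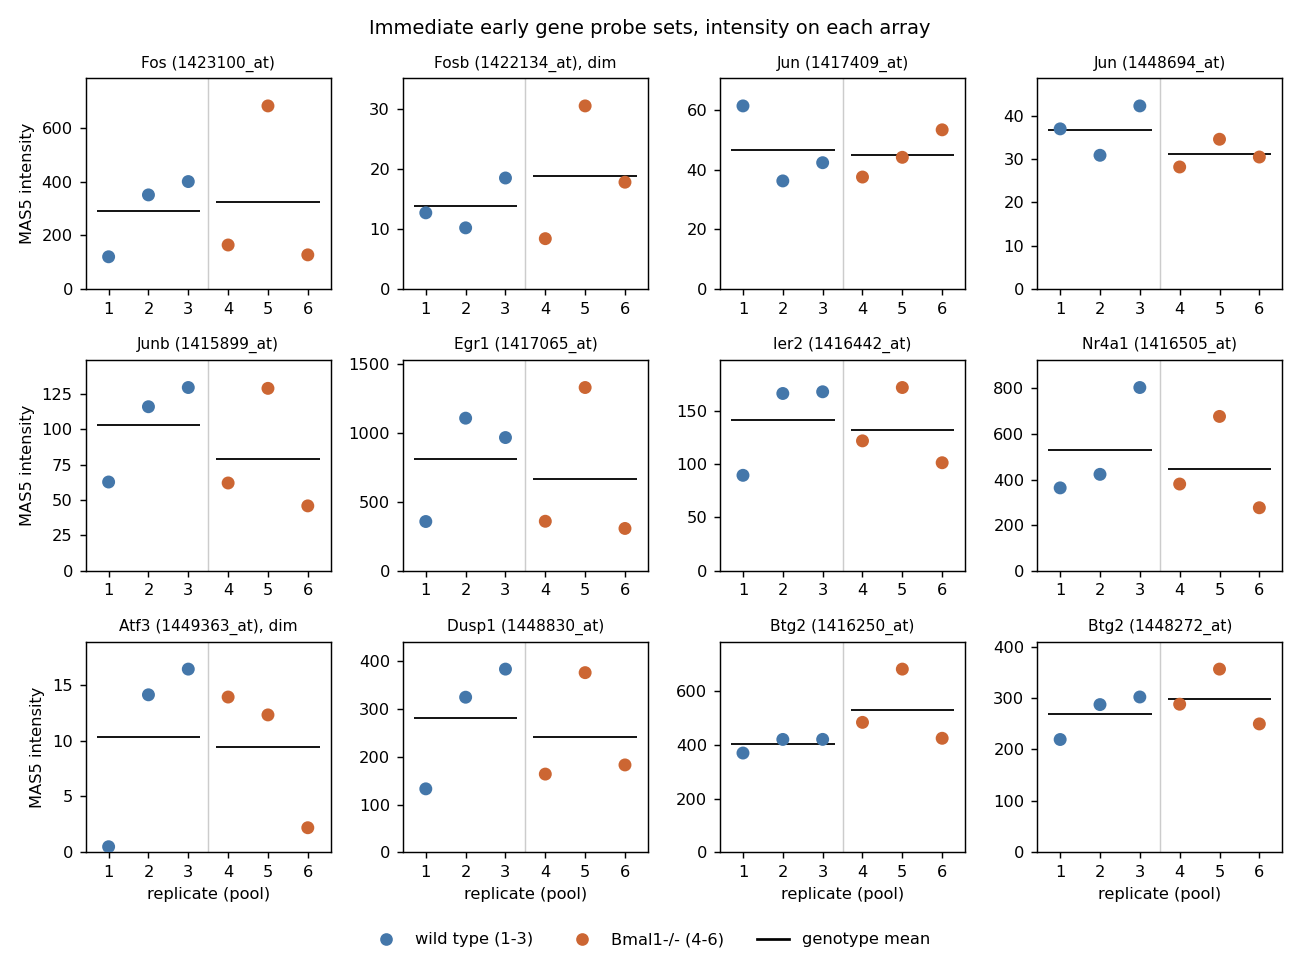
MAS5 intensity (vertical axis, linear, from 0) of the 12 probe sets of the 10 genes on each of the 6 arrays (horizontal axis, replicate number), with wild type in blue, Bmal1-/- in orange and a bar at each genotype mean; "dim" marks the 2 probe sets left out of the test for their low level. For Fos, wild-type replicate 1 lies at 120.2 and Bmal1-/- replicate 5 at 681, and the genotypes overlap in every panel but that of Btg2 probe set 1416250_at.

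Among the AP-1 subunits, Fos, which cannot pair with itself and needs a JUN partner, read 120.2, 350.2 and 399.8 in wild-type replicates 1, 2 and 3. In Bmal1-/- replicates 4, 5 and 6 it read 164, 681 and 127.3. The highest and the lowest of the 6 arrays, Bmal1-/- replicate 5 and wild-type replicate 1, lay 5.67-fold apart, and the genotypes overlapped, with replicate 5 alone above every wild-type pool. The mean was 290.1 ± 149 (SD, n = 3) in wild type and 324 ± 309.6 in Bmal1-/-, and limma gave a log2 difference of -0.07 (SE 0.51, adjusted p = 0.957). On the linear scale the Bmal1-/- mean is the higher one, and on the log2 scale the lower. The 95% interval ran from -1.18 to 1.04, so the data allow anything from a fall to 0.442 times wild type to a 2.06-fold rise. The sign turned on omission of wild-type replicate 2 (0.14), wild-type replicate 3 (0.23), Bmal1-/- replicate 4 (0.20) and Bmal1-/- replicate 6 (0.37), and the value fell to -0.57 without wild-type replicate 1 and -0.77 without Bmal1-/- replicate 5.

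Junb, the JUN family member that often restrains JUN activity, read 62.8, 116.1 and 129.7 in wild type. Its 3 Bmal1-/- values were 62.1, 129.1 and 45.9. Replicate 5 was thus level with the higher wild-type pools and replicate 4 with the lowest, while replicate 6 was the lowest of all arrays. The log2 fold change was -0.37 (SE 0.29, limma adjusted p = 0.502), with a 95% interval from -0.99 to 0.25. It was -0.72 without Bmal1-/- replicate 5 and -0.64 without wild-type replicate 1, but -0.20 without wild-type replicate 3 and -0.11 without Bmal1-/- replicate 6.

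Jun, the core partner of the FOS proteins, did not follow that order. Probe set 1417409_at read 61.3, 36.2 and 42.3 in wild type and 37.5, 44.1 and 53.3 in Bmal1-/-, so here wild-type replicate 1 was the highest of all arrays. Probe set 1448694_at read 37, 30.9 and 42.3, then 28.2, 34.6 and 30.5. The high and low arrays thus differed between the 2 probe sets, and neither separated the genotypes. Their log2 fold changes were -0.03 (SE 0.17) and -0.16 (SE 0.15), with limma adjusted p of 0.952 and 0.589. The first was 0.14 without wild-type replicate 1 and 0.06 without Bmal1-/- replicate 4. Their intervals, -0.40 to 0.35 and -0.48 to 0.16, were narrower than that of Fos on this log2 scale. The scale understates differences of dim genes, and every Jun reading was below every Fos reading. With pseudocounts of 1 and 64 added before the log, probe set 1448694_at gave -0.23 and -0.08, and 1417409_at gave -0.03 and -0.02. The narrower intervals thus do not show that Jun differed less than Fos.

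Fosb and Atf3, a CREB-family repressor also induced by stress, were dim. Fosb read 12.7, 10.2 and 18.5 in wild type and 8.4, 30.5 and 17.8 in Bmal1-/-. Atf3 read 0.5, 14.1 and 16.4, then 13.9, 12.3 and 2.2. Both lay below the brightest 60% of probe sets, which were the ones tested, so they have no p here. In their differences of log2 means, 0.19 for Fosb and -0.02 for Atf3, neither genotype stood apart, and the highest Fosb value was again that of Bmal1-/- replicate 5. Detection calls were not used here, so whether these low readings lie above background is not given.

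Egr1 read 357.2, 1107.5 and 966.8 in wild type. In Bmal1-/- it read 359, 1330.1 and 306.8, so 1 pool of that genotype was the highest of all 6 and the other 2 lay beside the lowest wild-type pool. The mean was 810.5 ± 399 in wild type and 665 ± 576 in Bmal1-/-, and their log2 difference was -0.45 (SE 0.48, limma adjusted p = 0.648). The 95% interval, -1.49 to 0.59, reaches from 0.357 times the wild-type level to 1.51 times it. Without Bmal1-/- replicate 5 the log2 fold change was -1.10, and without wild-type replicate 1 it was -0.94, with limma adjusted p of 0.128 and 0.297. The other 4 omissions brought it nearer to 0, to -0.15 and -0.25 without wild-type replicates 2 and 3 and to -0.17 and -0.07 without Bmal1-/- replicates 4 and 6.

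Nr4a1 read 363.5, 422.9 and 804 in wild type and 380.4, 677.1 and 276.3 in Bmal1-/-. Wild-type replicate 3 stood above the other 2 wild-type pools by itself here, unlike Fos, Egr1 and Dusp1, where replicates 2 and 3 were both high. The log2 fold change was -0.26 (SE 0.30, limma adjusted p = 0.676), and its interval was -0.90 to 0.39. It was 0.08 without wild-type replicate 3 and 0.03 without Bmal1-/- replicate 6, against -0.48 without wild-type replicate 1 and -0.60 without Bmal1-/- replicate 5.

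Ier2, a small nuclear protein of the early growth response, read 89.4, 166.1 and 167.7 in wild type and 121.7, 171.7 and 101.2 in Bmal1-/-. Wild-type replicate 1 was again lowest and Bmal1-/- replicate 5 highest of all 6 arrays. The log2 fold change was -0.07 (SE 0.21, limma adjusted p = 0.890). Its sign turned on omission of wild-type replicate 2 (0.06), wild-type replicate 3 (0.06) and Bmal1-/- replicate 6 (0.08), and it was -0.34 without wild-type replicate 1 and -0.26 without Bmal1-/- replicate 5.

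Both remaining genes encode brakes on growth signalling. Dusp1, a phosphatase that inactivates MAP kinases and so ends the signal that induces it, read 133, 325 and 383.9 in wild type and 163.9, 376.5 and 183.1 in Bmal1-/-. Its high and low pools were those of Fos, and its log2 fold change was -0.18 (SE 0.34, limma adjusted p = 0.818, interval -0.91 to 0.55). Omission of wild-type replicate 3 (0.10) and of Bmal1-/- replicate 4 (0.03) turned the sign, and the value was -0.61 without wild-type replicate 1 and -0.53 without Bmal1-/- replicate 5.

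Btg2, an antiproliferative protein that recruits the CCR4-NOT deadenylase, had the smallest p of the 8 genes tested. Probe set 1416250_at read 370, 420.7 and 420.9 in wild type and 484.3, 682.8 and 425 in Bmal1-/-. Each Bmal1-/- array was above every wild-type array, the closest pair being 420.9 and 425. The log2 fold change was 0.36 (SE 0.14, interval 0.05 to 0.66), with a limma p of 0.0254 before and 0.164 after adjustment over all tested probe sets. Over the alternatives the adjusted p ran from 0.0749 to 0.471. Without Bmal1-/- replicate 5 the log2 fold change was 0.16. The other probe set, 1448272_at, read 219.4, 287.3 and 302.1 in wild type and 288, 356.3 and 249.7 in Bmal1-/-. It overlapped between genotypes, at 0.13 (SE 0.14, limma adjusted p = 0.631), and at 0.01 without Bmal1-/- replicate 5 and 0.00 without wild-type replicate 1, so the Btg2 probe sets share a direction but not the separation.

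Of the 10 member probe sets tested, which cover 8 genes, 0 were called at an adjusted p under 0.05 in limma, against 5.54% of all 13576 tested probe sets, 2.75% higher and 2.78% lower in Bmal1-/-. These 374 higher and 378 lower calls became 622 and 275 with equal array medians, with 0 members among them. At an unadjusted p under 0.05 the count was 1 of 10, against 21.0% of all. Genotypes did not overlap for 1 of 10, against 25.9% of all. The difference was below 0 for 8 of the 10, with a median of -0.12, while 51.6% of all tested probe sets were below 0 with a median of -0.008. With the dim pair added it was below 0 for 9 of 12 (median -0.07), and for 7 of 12 after quantile normalization or with equal array medians. The median of the 12 moved to -0.33 without wild-type replicate 1 and to -0.24 without Bmal1-/- replicate 5. It turned to 0.02 and 0.09 without wild-type replicates 2 and 3 and to 0.05 without Bmal1-/- replicate 6.

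**Figure D2:**
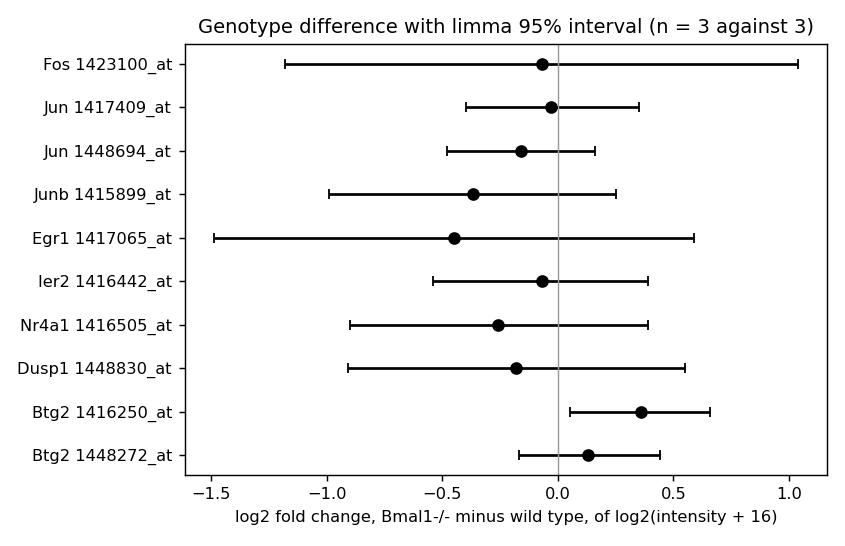
Log2 fold change, Bmal1-/- minus wild type, of log2(intensity + 16) for the 10 tested probe sets (rows), with points at the limma estimate and bars at its 95% interval from 3 arrays against 3. The interval includes 0 for 9 of 10 probe sets and is widest for Fos (-1.18 to 1.04) and Egr1 (-1.49 to 0.59); that of Btg2 probe set 1416250_at runs from 0.05 to 0.66 before any adjustment.

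The spread between pools of one genotype set these genes apart from most of the array as a matter of description. The pooled within-genotype SD was 1.07 on the log2 scale for Fos, the largest of all 13576 tested probe sets. Egr1, at 1.01, ranked 3, Dusp1 (0.69) ranked 11, Nr4a1 (0.61) ranked 18 and Junb (0.56) ranked 33. Ier2, at 0.41, exceeded 99.5% of the 200 tested probe sets nearest to it in mean level. These 6 were in the top 10% for spread, and 5 of them in the top 1%. The median SD was 0.48 over the 10 member probe sets and 0.15 over all tested. The 2 Btg2 probe sets, at 0.25 and 0.24, exceeded 92.5% and 95% of the probe sets like them in level. Jun did not stand out, at 0.25 (66.5%) and 0.13 (14.0%).

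Both genotypes contributed to the spread. The SD of Fos was 0.88 among wild-type and 1.23 among Bmal1-/- pools, and that of Egr1 0.87 and 1.13. For Dusp1 it was 0.76 and 0.61. Btg2 probe set 1416250_at was the uneven case, at 0.10 in wild type and 0.34 in Bmal1-/-. The share of the variance over the 6 arrays that lay between the genotypes was 0.154% for Fos, 6.84% for Egr1 and 2.39% for Dusp1. Its median was 6.49% over the 10 member probe sets and 25.9% over all tested.

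**Figure D3:**
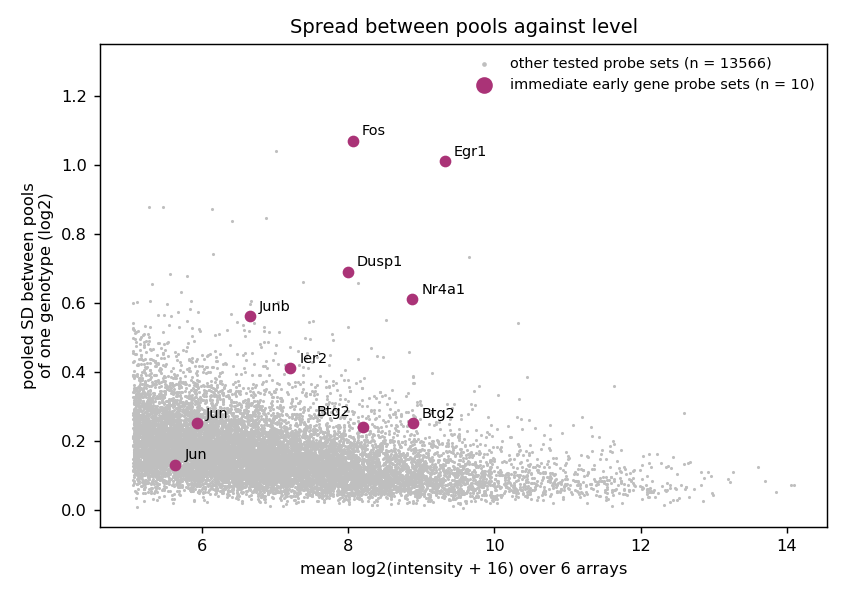
Pooled SD between pools of one genotype (vertical axis, log2) against mean log2(intensity + 16) over the 6 arrays (horizontal axis) for all tested probe sets, with the 10 immediate early gene probe sets in purple and the other 13566 in grey. Fos (1.07) and Egr1 (1.01) lie at the upper edge of the plot, Dusp1, Nr4a1, Junb and Ier2 between 0.41 and 0.69, and Jun and Btg2 at 0.25 or below.

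Most of the member genes moved in step from pool to pool. Wild-type replicate 1 was the lowest wild-type array for 8 of the 10 tested probe sets, and for 33.7% of all tested probe sets. Bmal1-/- replicate 5 was the highest of its genotype for 9 of 10, and for 32.0% of all. Both held together for 8 of 10, all but the Jun pair, against 10.2% of all tested probe sets and 9.65% of the 1358 with the largest spread. These 8 count Btg2 at both of its probe sets. This order was noticed in these values, and the 6 arrays were not sampled to test it. Averaged over the 10 probe sets, the log2 deviation from the genotype mean was -0.44, 0.13 and 0.31 in wild-type replicates 1, 2 and 3 and -0.23, 0.59 and -0.36 in Bmal1-/- replicates 4, 5 and 6. Over the same 6 arrays, the deviations of Fos and Junb each had r = 0.99 with the mean of the other genes, Btg2 0.91 and 0.97, Egr1 0.96, Dusp1 0.94, Ier2 0.93 and Nr4a1 0.87. For Jun it was -0.58 and 0.40, and for the dim Fosb and Atf3, which are not among the 10, it was 0.68 and 0.73. Neither of that dim pair had both ends of the order. Fosb was lowest in wild-type replicate 2, and Atf3 was highest in Bmal1-/- replicate 4. These correlations are descriptions over 6 arrays, and on each array all genes were read from the same RNA.

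As whole profiles the arrays were alike. Pearson's r across tested probe sets lay between 0.980 and 0.986 for arrays of one genotype, and between 0.970 and 0.976 across genotypes. The hormone genes that define the gland were bright on all 6 arrays, with Gh between 15480 and 20434, and their summed intensity lay between 61039 and 69435 in wild type and between 55221 and 58054 in Bmal1-/-. None of the 7 cell type lists summed had wild-type replicate 1 lowest together with Bmal1-/- replicate 5 highest. Each sum adds linear intensities, so the brightest genes of a list weigh most in it. The endothelium list came nearest, all 7 genes measured, at 266, 332.7 and 325.7 in wild type and 328.1, 325 and 289 in Bmal1-/-, and of the 7 hormone genes Tshb alone had the full order (3638.3, 3856.5 and 4048.2, then 3755.9, 4102.2 and 3387.4). The red blood cell list, of which 3 of 6 genes were measured, summed to 145.4, 70 and 114.2 in wild type and 76.9, 119 and 72.9 in Bmal1-/-. The log2 3′ over 5′ signal of the Actb control, which rises as RNA degrades, was 0.91, 0.74 and 0.75 in wild type and 0.65, 0.89 and 0.70 in Bmal1-/-. In both measures wild-type replicate 1, with low Fos, and Bmal1-/- replicate 5, with high Fos, were each the highest of their genotype. The same ratio of the Gapdh control was -0.52, -0.59 and -0.67, then -0.62, -0.79 and -0.68, so there replicate 5 was the lowest of all arrays. The macrophage and leukocyte list, all 7 genes measured, was also highest in wild-type replicate 1 and in Bmal1-/- replicate 5 within each genotype. It summed to 466.4, 425.2 and 413.3 in wild type and 350.1, 352.9 and 311 in Bmal1-/-. The part of these measures in the spread of the member genes was not tested. In whole glands, more RNA per cell and more responding cells cannot be told apart, and nothing on the time or order of dissection within the day is used here. Arntl, the targeted gene, read 39.6, 51.7 and 38.6 in wild type and 112.1, 102 and 127.5 in Bmal1-/- (log2 fold change 1.13, SE 0.14, limma adjusted p = 0.000653). It was higher, not lower, in Bmal1-/-. Whether its probe set lies in the deleted part is not known here, so it does not check the labels, and every direction is that of the arrays labelled Bmal1-/-.

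Other early response genes, 1 probe set a gene, are set against 3.00% of all genes tested that rose and 2.66% that fell. Of 13 tested transcription factors of this kind among 21 listed, 1 fell and 0 rose. It was Cebpb, a leucine zipper factor of inflammatory and metabolic responses, which read 299.3, 252.8 and 392.4 in wild type and 137.9, 246.3 and 140.5 in Bmal1-/- (log2 fold change -0.82, SE 0.20, limma adjusted p = 0.0325). Its highest Bmal1-/- pool was also replicate 5, which lay just below the lowest wild-type pool. The call ended under 7 of 15 alternatives (highest adjusted p = 0.138), among them the omission of wild-type replicate 1, of wild-type replicate 3, and of Bmal1-/- replicate 4 and of replicate 6. All 13 had log2 fold changes below 0, with a median of -0.22, against 50.1% of the 8033 genes tested and a median of 0. They were still all below 0 after quantile normalization and with equal array medians, but 12 of 13 when Bmal1-/- replicate 6 or either of wild-type replicates 1 and 2 was omitted, and 10 of 12 when wild-type replicate 3 was.

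Of the 4 tested paralogues of the member genes in that list, none had both ends of the members' order of pools. Egr3 read 45.2, 12.3 and 48.4 in wild type and 29.8, 22.3 and 24.3 in Bmal1-/-, with its lowest value in wild-type replicate 2. Nr4a2 read 94.2, 73.5 and 118.4, then 105.8, 129.7 and 42, and Jund read 958.6, 999.8 and 1099.4, then 1012.8, 805.7 and 719.5. Egr2 read 23.1, 16.7 and 33.4, then 11.2, 21.3 and 11. Of these 4, only Jund had wild-type replicate 1 lowest, and Nr4a2 and Egr2 had Bmal1-/- replicate 5 highest. None passed the test between genotypes (limma adjusted p = 0.689, 0.850, 0.167 and 0.273, in that order). These 4 were chosen as paralogues after their values were seen. Egr2, with no reading above 33.4, and Egr3, with none above 48.4, were dim. MAS5 values are noisy at low levels, so the order of pools of these genes is uncertain. Both ends of the order held for 1 of the 13 transcription factors, Klf4, and for 10.7% of all genes tested. Spread was wide in this list too, with 7 of 13 in the top 10% of tested probe sets.

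Of 22 tested early response effectors among 27 listed, 1 fell and 0 rose. Btg1, the closest relative of Btg2, read 1103.6, 1008.9 and 1165.3 in wild type and 883.8, 788.6 and 875.9 in Bmal1-/-, with no overlap (log2 fold change -0.36, SE 0.08, limma adjusted p = 0.0226). Its difference was thus opposite in sign to that of Btg2, and its lowest array was Bmal1-/- replicate 5, where Btg2 was highest. The Btg1 call ended under 6 of 15 alternatives, with a highest adjusted p of 0.107, including the omission of wild-type replicate 1, of wild-type replicate 3, and of Bmal1-/- replicate 5 and of replicate 6. The median of the effectors was -0.15, with 15 of 22 below 0, and 3 of 22 had both ends of the member order of pools.

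**Figure D4:**
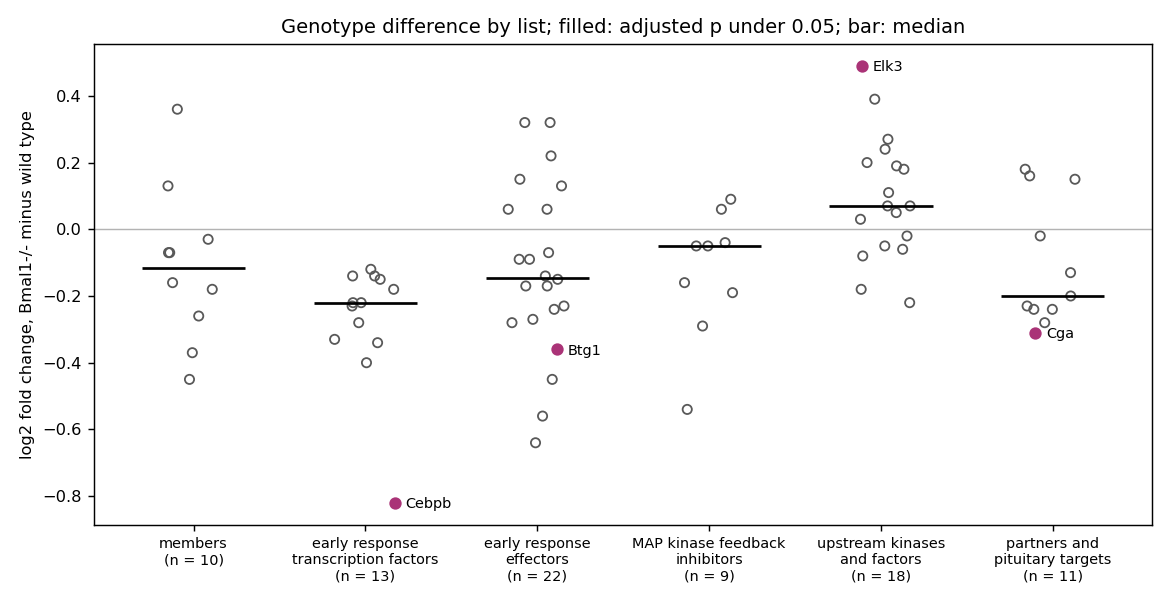
Log2 fold change, Bmal1-/- minus wild type (vertical axis), for the 10 tested member probe sets and for the tested genes of 5 other lists (columns, with n), with a bar at each median and filled purple points where the limma adjusted p is under 0.05. No member point is filled, and 1 gene is filled in each of 4 other lists, Cebpb (-0.82), Btg1 (-0.36), Elk3 (0.49) and Cga (-0.31).

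Among 9 tested MAP kinase phosphatases and feedback inhibitors of 14 listed, 0 were called by limma, and 1 had an unadjusted p under 0.05. It was Spry2, a receptor tyrosine kinase inhibitor, with a log2 fold change of -0.54 (limma adjusted p = 0.0537), and next came Dusp16, a JNK phosphatase, at -0.29 (limma adjusted p = 0.250). The list's median was -0.05. Of 18 tested upstream kinases and factors among 34 listed, 1 rose and 0 fell, with a median of 0.07. Elk3, an ETS partner of SRF, read 86.2, 86 and 104.4 in wild type and 125.5, 149.6 and 131.1 in Bmal1-/-, with no overlap (log2 fold change 0.49, SE 0.12, limma adjusted p = 0.0355). Leaving out any array but wild-type replicate 3 ended that call (highest adjusted p over the alternatives 0.143). Both ends of the member order of pools held for 5 of the 18 upstream genes, Srf, Mrtfa, Mapk9, Prkacb and Crtc3, against 10.7% of all genes tested, and for 1 of the 9 feedback inhibitors. Srf, the factor of serum response elements, read 39.6, 44.2 and 47.5 in wild type and 51.4, 84.1 and 54.8 in Bmal1-/- (log2 fold change 0.39, limma adjusted p = 0.195). These 5 were named for their order after their values were seen.

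Genes that partner EGR1 or BTG2 or that these factors are known to act on showed 1 call in 11 tested of 13 listed, with a list median of -0.20, or -0.04 after quantile normalization. Cga, the shared subunit of the glycoprotein hormones, fell (log2 fold change -0.31, SE 0.07, limma adjusted p = 0.0190), a call lost after quantile normalization (0.664) and when wild-type replicate 3, Bmal1-/- replicate 4 or Bmal1-/- replicate 6 was omitted. Lhb, the EGR1 target, read 3749.6, 3976.4 and 4781.3 in wild type and 4806.3, 4480 and 4780.7 in Bmal1-/- and did not pass. Pomc, the NR4A1 target, read 11566.8, 9835.5 and 10688.9, then 9774.1, 8677 and 8709.9, and did not pass either. Within Bmal1-/- the Lhb level was lowest in replicate 5, where Egr1 was highest, and within wild type both were lowest in replicate 1.

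The 10 genes outside the member list whose deviations were most like the members' were taken by Pearson's r over the 6 arrays from the 1257 probe sets with wide spread. They were Prkg1 (r = 0.989), Arhgap10 (0.964), Cables1 (0.945), Myb (0.924), Fhl2 (0.908), Ppie (0.905), Mef2d (0.896), Tspan17 (0.887), Sfxn4 (0.887) and Top3b (0.883). All were dim, with no reading above 69.5, and none belongs to the early response lists. Of the 1257, 6 had r at or over 0.9, and the ranking rests on 6 arrays centred within genotype. Whether that count is more than unrelated noise would give was not tested.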

How the data were processed

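The members and lists were chosen with earlier results of these data known. Per the labels' protocols, each pool gave 1 ug of total RNA for biotin-labelled cRNA. The deposited values are 1 linear intensity per probe set and array, made by the authors with MAS5, per the submitters' processing notes (version, target and detection calls not given in the sources used here). MAS5 subtracts a mismatch background, so low values are noisy. Of 22690 probe sets, 64 controls were left out. The 60% with the highest mean of log2(intensity + 16), 13576, were tested with limma 3.58.1 in R 4.3.3 (lmFit, eBayes with intensity trend, two-sided, Benjamini-Hochberg adjustment over all tested, threshold 0.05). Fold changes on this scale understate those of dim genes. In other lists the brightest tested probe set stands for a gene. All member probe sets are given; from each other list, genes past the threshold, or the 2 with the smallest p (paralogues, targets and genes named for their order of pools were chosen after their values were seen); and the 10 most like genes. The spread is the pooled within-genotype SD. The procedure was tested on simulated data whose noise followed the trend of spread with level. Fos and Egr1 spread far more than that trend, so the simulation does not cover them. The number of arrays limits the precision.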

Additional observations from a re-analysis of the deposited data

How the results depend on the processing

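The count of called member probe sets was 0 under quantile normalization, pseudocounts of 1 and 64, no filter, equal array medians, the top 40% of probe sets, eBayes without trend or robust, array weights, each omission of 1 array, a threshold of 0.1 and the mean of a gene's probe sets, the last 2 and all list alternatives but that mean chosen after seeing the data. Over the omissions the members' median log2 fold change ran from -0.33 to 0.09 and their median spread from 0.40 to 0.55; the spread was 0.54 and 0.34 with pseudocounts of 1 and 64. The 752 calls over all probe sets became 330 with no filter, 407 without trend and 1403 at 0.1, and 314 to 950 over the omissions. Calls among transcription factors (1) were 0 with no filter, without trend and with robust eBayes, and 0 to 2 over the omissions. Those among effectors (1) were 0 with no filter or without trend, 2 with equal medians, the top 40%, robust eBayes or mean probe sets, 3 with array weights, and 0 to 2 over the omissions. Feedback inhibitors (0) gave 1 with robust eBayes and with mean probe sets, and 0 to 1 over the omissions. Upstream genes (1) gave 0 with no filter or without trend and 0 to 1 over the omissions. Partners and targets (1) gave 0 with quantile normalization, no filter or without trend, 2 with mean probe sets and 0 to 3 over the omissions. No paired analysis was possible because the genotypes share no replicate numbers. The causes were not tested. With no detection calls, nothing can be said of Fosb and Atf3 relative to background.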
